A study of Mus musculus with 8 samples.

Results

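The respiratory chain and the ATP synthase of the mitochondrial inner membrane are described here through 91 nuclear genes, of 19938 genes measured, in mouse macrophages exposed to IL-6. The members were chosen by symbol, with earlier results of these data known. They are the Ndufa, Ndufb, Ndufc, Ndufs, Ndufv, Uqcr, Atp5 and Cox4 to Cox8 genes, with the 4 Sdh genes, Cyc1 and Cycs. Each gene is represented by its brightest probe set, a group of probes on the array read as 1 value. By function the members were 34 subunits of complex I, 4 of complex II, 9 of complex III, 10 of complex IV and 17 of complex V, 7 assembly factors of complex I, 8 isoforms of other tissues or of hypoxia, cytochrome c and Cox7a2l. Ndufa4, named for complex I, was placed in complex IV, where it is now counted as a subunit. Cox7c and Ndufb4 lie only on probe sets shared with other genes and are given separately.

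Macrophages were grown from bone marrow with M-CSF (10 ng/ml) over 10 days, starved of serum overnight and then exposed for 4 h to 50 ng/ml of recombinant IL-6. Ctrl cells came from mice whose Il6ra alleles, which encode the IL-6 receptor alpha chain, are flanked by loxP sites. IL6raKO cells came from mice with the same floxed alleles and 1 copy of LysMCre, a Cre recombinase driven by the lysozyme M promoter of myeloid cells. Each group had 4 arrays, labelled as biological replicates. All 8 cultures received IL-6 and only IL6raKO carried Cre, so receptor loss and the presence of Cre cannot be told apart, and neither can a response to IL-6 and a difference present before it. Separate animals or cultures are not stated in the labels. The p-values therefore cover only the variation among these arrays, which may be technical. In bulk RNA, fewer cells of a type and less RNA per cell cannot be told apart.

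Complex I passes electrons from NADH, and complex II from succinate, to ubiquinone. Complex III passes them on to cytochrome c and complex IV to oxygen, and complexes I, III and IV pump protons across the inner membrane. The ATP synthase, complex V, lets the protons return through a rotating ring of c subunits and makes ATP. Every complex except II also holds subunits encoded by mitochondrial DNA, so nuclear and mitochondrial transcripts must supply a common machine. In macrophages the chain is known for its link to activation state: cells given IL-4 rely on oxidative phosphorylation, whereas strong inflammatory stimuli shift them to glycolysis and to succinate-driven oxidant production.

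Il6ra, the targeted gene, stood at 8.43, 8.40, 8.40 and 8.45 (log2 expression) in the 4 Ctrl arrays and at 7.75, 8.10, 7.91 and 7.92 in the IL6raKO arrays. The groups did not overlap, and the difference of -0.50 (SE 0.07) had an adjusted p of 0.0607 in limma, short of the 0.05 threshold over all genes. Where its probes lie relative to the floxed segment is not known here, so this check of the labels has limits. Macrophage markers were bright in every array, with Csf1r at 12.33 and 12.34, Cd68 at 12.89 and 12.93 and Adgre1 at 12.35 and 12.27 (means of Ctrl and IL6raKO). Ctrl replicate 4 stood apart from the rest, scoring 21.5 on principal component 1 (23.6% of variance), where the other 7 scored -6.6 to 4.8, so the values that it moved most are also given without it.

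Transcripts of the respiratory chain and ATP synthase differed little between IL6raKO and Ctrl, and 0 of the 91 genes were called. The call was an adjusted p under 0.05 (limma, Benjamini-Hochberg over all genes), which 0.0301% of all genes met. The lowest adjusted p among the members was 0.566, for Atp5md. At an unadjusted p under 0.05, 3 of the 91 (3.3%) passed, against 7.28% of all genes. Of these, 1 was higher in IL6raKO (Atp5md, where 2.74% of all genes passed as higher) and 2 were lower (Ndufb5 and Cox8c, where 4.54% passed as lower). The median difference, IL6raKO minus Ctrl, was -0.015 over the members and -0.01 over all genes on the log2 scale, and the members ranged from -0.21 (Uqcr11) to 0.26 (Atp5md).

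The precision of the single genes is given by confidence intervals that are not adjusted for the number of genes. The half-width of the 95% confidence interval lay between 0.12 and 0.30 for the 91 genes, with a median of 0.16. For all 91 the interval lay within 0.5 of zero on the log2 scale, a change of 1.41-fold in either direction, as it did for 97.3% of all genes. For 71 of the 91 it lay within 0.3, or 1.23-fold. A difference smaller than a gene's own half-width could not be told from zero with 4 arrays a group. A call over all genes needed more than that. Il6ra, at -0.50 (SE 0.07), was not called (adjusted p = 0.0607 in limma), so the half-width is not the size of change that would be called.

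**Figure D1:**
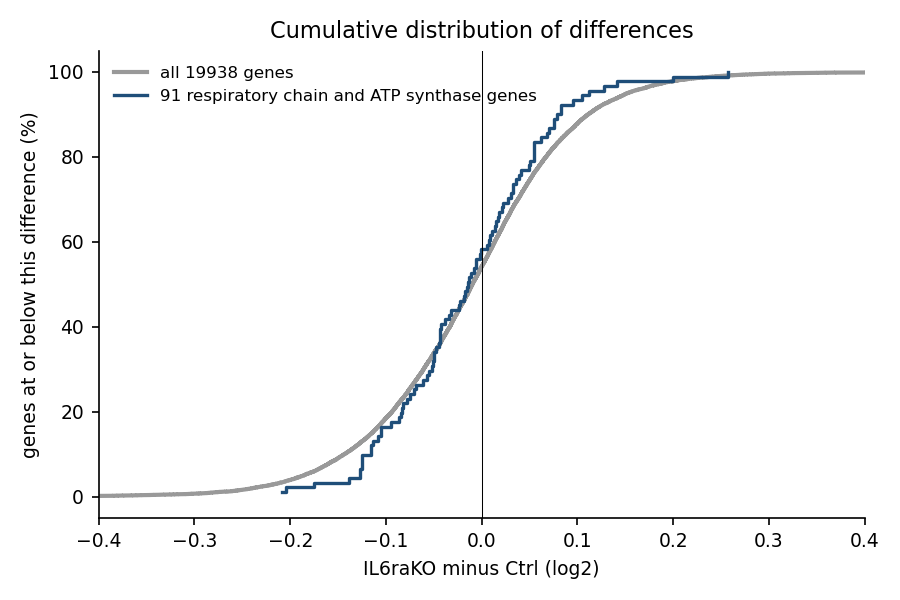
Share of genes (%, vertical axis) at or below each difference between IL6raKO and Ctrl (log2, horizontal axis), for the 91 respiratory chain and ATP synthase genes and for all 19938 genes. The curves run close together and cross zero near the middle: 58.2% of the members and 54.2% of all genes had a lower mean in IL6raKO.

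Direction gave no more than size. In IL6raKO 53 of the 91 had a lower mean and 38 a higher one, or 58.2% lower against 54.2% of all genes. Groups without overlap were seen for 1 member with all IL6raKO arrays lower, Ndufb5 (1.1%, against 2.37% of all genes), and for 1 with all of them higher, Atp5md (1.1%, against 2.07%). The shares depend on the scale: with each array centred on its 75th percentile, 70.3% of members and 66.3% of all genes were lower. Without Ctrl replicate 4 it was 46 of 91, or 50.5%, and 50.8% of all genes.

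**Figure D2:**
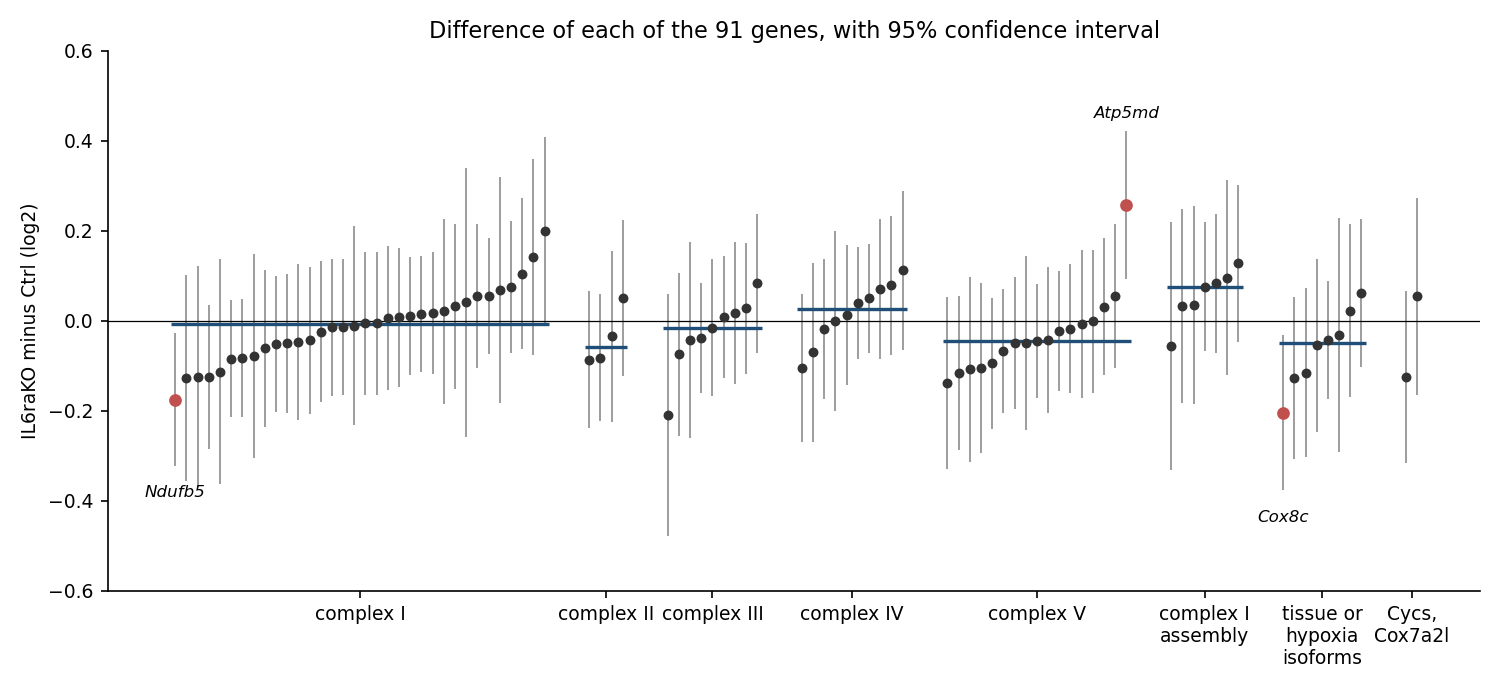
Difference between IL6raKO and Ctrl for each of the 91 genes (log2, vertical axis), sorted within complexes I to V and the other classes along the horizontal axis, with 95% confidence intervals from limma as grey lines and class medians as blue bars. Red points mark the 3 genes with an unadjusted p under 0.05, Atp5md, Ndufb5 and Cox8c, and all other intervals include zero.

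By complex, the median differences were -0.008 for complex I, -0.058 for complex II, -0.015 for complex III, 0.026 for complex IV and -0.045 for complex V. The number of subunits with a lower mean in IL6raKO was 19 of 34, 3 of 4, 5 of 9, 4 of 10 and 14 of 17 in that order. Without Ctrl replicate 4 the medians were -0.005, -0.015, -0.009, 0.055 and -0.016. Each array was also given a level per complex, the mean deviation of its subunits from each gene's mean over the 8 arrays. For complex I the Ctrl level was 0.006 ± 0.052 and the IL6raKO level -0.006 ± 0.022 (SD, n = 4 each). For complex II it was 0.019 ± 0.106 and -0.019 ± 0.067, for complex III 0.013 ± 0.064 and -0.013 ± 0.019 (SD, n = 4 each). For complex IV it was -0.008 ± 0.082 and 0.008 ± 0.038, and for complex V 0.015 ± 0.069 and -0.015 ± 0.028 (SD, n = 4 each). In all 5 complexes the arrays of the 2 groups overlapped and the group means differed by less than the Ctrl SD. Without Ctrl replicate 4 the level of complex III differed by -0.005 in place of -0.027, that of complex IV by 0.044 in place of 0.017 and that of complex V by -0.002 in place of -0.031. Whether one complex differed from another was not tested, since subunits are not replicates.

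The 6 measured core subunits of complex I, among them those that carry the flavin and the iron-sulphur clusters, differed in both directions. Ndufv2, of the NADH-binding module, differed by 0.14, Ndufs8 by 0.10 and Ndufs1 by 0.05. Ndufs3 differed by -0.05, the flavin-binding Ndufv1 by -0.08 and Ndufs7 by -0.13. None had an unadjusted p under 0.183. Ndufv2 stood at 8.66, 8.69, 8.68 and 8.25 in Ctrl and at 8.65, 8.72, 8.66 and 8.82 in IL6raKO. Its low value belongs to Ctrl replicate 4, while the other 7 arrays lay between 8.65 and 8.82.

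Among the 28 accessory subunits of complex I, Ndufb5, a subunit of the membrane arm, had the lowest p. It stood at 7.72, 7.84, 7.78 and 7.81 in Ctrl and at 7.50, 7.55, 7.68 and 7.71 in IL6raKO. The highest IL6raKO array lay just under the lowest Ctrl array. The difference was -0.18 (SE 0.07, unadjusted p = 0.0239 and adjusted p = 0.66 in limma), or 88.6% of the Ctrl level. Ndufa1, a small membrane subunit encoded on the X chromosome, stood at 6.68, 6.75, 7.03 and 6.82 in Ctrl and at 6.78, 7.10, 7.08 and 7.11 in IL6raKO. Here 3 of the 4 IL6raKO arrays lay above every Ctrl array, and the difference was 0.20 (SE 0.10, adjusted p = 0.701 in limma). Ndufa3, also of the membrane arm, differed by -0.12 (adjusted p = 0.729 in limma).

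Members of complex I with a known part outside or at the edge of catalysis were close to level. Ndufa13, also called GRIM-19, is an accessory subunit that has been described to bind STAT3, which carries the IL-6 signal to the nucleus. It stood at 7.60, 7.44, 7.61 and 7.53 in Ctrl and at 7.66, 7.43, 7.61 and 7.47 in IL6raKO. Its difference was -0.01 (95% confidence interval -0.16 to 0.15). Stat3 itself was called over all genes, with a difference of -0.57 (adjusted p = 0.0348 in limma). That call was lost with any 1 array left out (adjusted p = 0.0771 to 0.166 in limma) and with the replicate block (adjusted p = 0.161 in limma). Ndufs4, whose loss in mice gives a form of Leigh syndrome, differed by 0.01 (95% confidence interval -0.15 to 0.16). Both genes overlapped fully between the groups.

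The probe sets that Ndufb4, Cox7c and Ndufs5 share with other genes had higher means in IL6raKO. The 2 sets shared by Ndufb4 and Ndufb4b differed by 0.154 (SE 0.086) and 0.188 (SE 0.083), with unadjusted p-values of 0.11 and 0.0517 in the fit of all probe sets. The 3 sets shared by Cox7c and the gene model Gm12338 differed by 0.128, 0.12 and 0.091, and the set shared by Ndufs5 and its pseudogene by 0.081. None of these 6 sets had an unadjusted p under 0.05, and which of the named genes gave the signal cannot be told.

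Complex II, succinate dehydrogenase, is the one complex encoded wholly in the nucleus and also a step of the tricarboxylic acid cycle. Sdha, its flavoprotein, stood at 10.25, 10.37, 10.41 and 10.42 in Ctrl and at 10.29, 10.22, 10.37 and 10.25 in IL6raKO. Its difference was -0.08 (95% confidence interval -0.22 to 0.06). Sdhb, the iron-sulphur subunit, differed by 0.05 (95% confidence interval -0.12 to 0.22). The membrane anchors Sdhc and Sdhd differed by -0.03 (95% confidence interval -0.22 to 0.16) and -0.09 (95% confidence interval -0.24 to 0.07). All 4 genes were highest of the 8 arrays in Ctrl replicate 4, and without that array the complex II level differed by 0.006 in place of -0.038.

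In complex III the catalytic subunits Cyc1, cytochrome c1, and Uqcrfs1, the Rieske iron-sulphur protein, differed by 0.08 (95% confidence interval -0.07 to 0.24) and 0.01 (95% confidence interval -0.13 to 0.14). The core proteins Uqcrc1 and Uqcrc2 differed by 0.02 and -0.04. The widest difference was that of Uqcr11, a small accessory subunit, which stood at 7.58, 7.71, 7.69 and 8.04 in Ctrl and at 7.62, 7.66, 7.20 and 7.70 in IL6raKO. One array in each group set this difference of -0.21 (SE 0.12, adjusted p = 0.731 in limma): Ctrl replicate 4 was the highest and IL6raKO replicate 3 the lowest. A second, dimmer probe set of Uqcr11 differed by -0.077 and had IL6raKO replicate 3 at 6.75, within the range of the other arrays. Uqcrh, the hinge protein, differed by -0.07.

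Complex IV holds small nuclear subunits around a mitochondrially encoded core. Cox4i1, the common form of subunit 4, stood at 9.20, 9.36, 9.32 and 9.52 in Ctrl and at 9.20, 9.24, 9.33 and 9.22 in IL6raKO, a difference of -0.11 (adjusted p = 0.783 in limma), or -0.048 without Ctrl replicate 4. Cox5a, which pairs with subunit 4 during assembly, differed by 0.11 (adjusted p = 0.787 in limma) and Cox6c by 0.08 (adjusted p = 0.832 in limma). The other common subunits lay between -0.07 (Cox8a) and 0.07 (Cox7a2), with Cox6b1 at -0.0004, Cox6a1 at 0.01 and Ndufa4 at -0.02. The complex's median of 0.026 was -0.002 when arrays were centred on the 75th percentile, and 0.055 without Ctrl replicate 4, when 2 of the 10 subunits had a lower mean.

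The isoforms that replace complex IV subunits in other tissues were measured separately. Of the 8 isoforms of other tissues or of hypoxia, 6 had a mean below 6.43, the median over all genes, Cox8c among them. Whether these 6 are expressed in the cells was not tested. Cox8c, a testis form of subunit 8, stood at 6.41, 6.44, 6.25 and 6.39 in Ctrl and at 6.08, 6.36, 6.05 and 6.18 in IL6raKO. The groups overlapped through IL6raKO replicate 2, and the difference was -0.20 (SE 0.08, unadjusted p = 0.0245 and adjusted p = 0.662 in limma). The muscle forms Cox6a2, Cox7a1 and Cox8b differed by -0.04, -0.12 and -0.05, and the testis forms Cox6b2 and Cox7b2 by 0.02 and 0.06. Cox4i2, the form of subunit 4 found in lung and raised by hypoxia, differed by -0.13 (95% confidence interval -0.31 to 0.05). Ndufa4l2, a hypoxia-induced relative of Ndufa4, differed by -0.03 (95% confidence interval -0.29 to 0.23). Cox7a2l, a relative of Cox7a2 that joins complexes III and IV into a supercomplex, differed by -0.13 (SE 0.09, adjusted p = 0.778 in limma), and its second probe set by -0.177.

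Complex V had the member with the lowest p. Atp5md, also called Usmg5 or DAPIT, is a small membrane subunit at the dimer interface of the ATP synthase. It stood at 8.71, 8.85, 8.82 and 8.64 in Ctrl and at 8.88, 9.01, 9.02 and 9.15 in IL6raKO. Each IL6raKO array lay above each Ctrl array. The difference was 0.26 (SE 0.08, 95% confidence interval 0.09 to 0.42), or 119% of the Ctrl level, with an unadjusted p of 0.00542 and an adjusted p of 0.566 in limma. In the fit of all probe sets, its 2 other sets differed by 0.247 (SE 0.095) and 0.182 (SE 0.071), and in both of them the groups overlapped through IL6raKO replicate 1. With any 1 array left out the difference of the used set lay between 0.212 and 0.302. The 2 other sets were dimmer, with Ctrl means of 7.48 and 7.30. Which transcripts each of the 3 sets reads, the gene's own or those of pseudogene copies, was not analysed here.

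**Figure D3:**
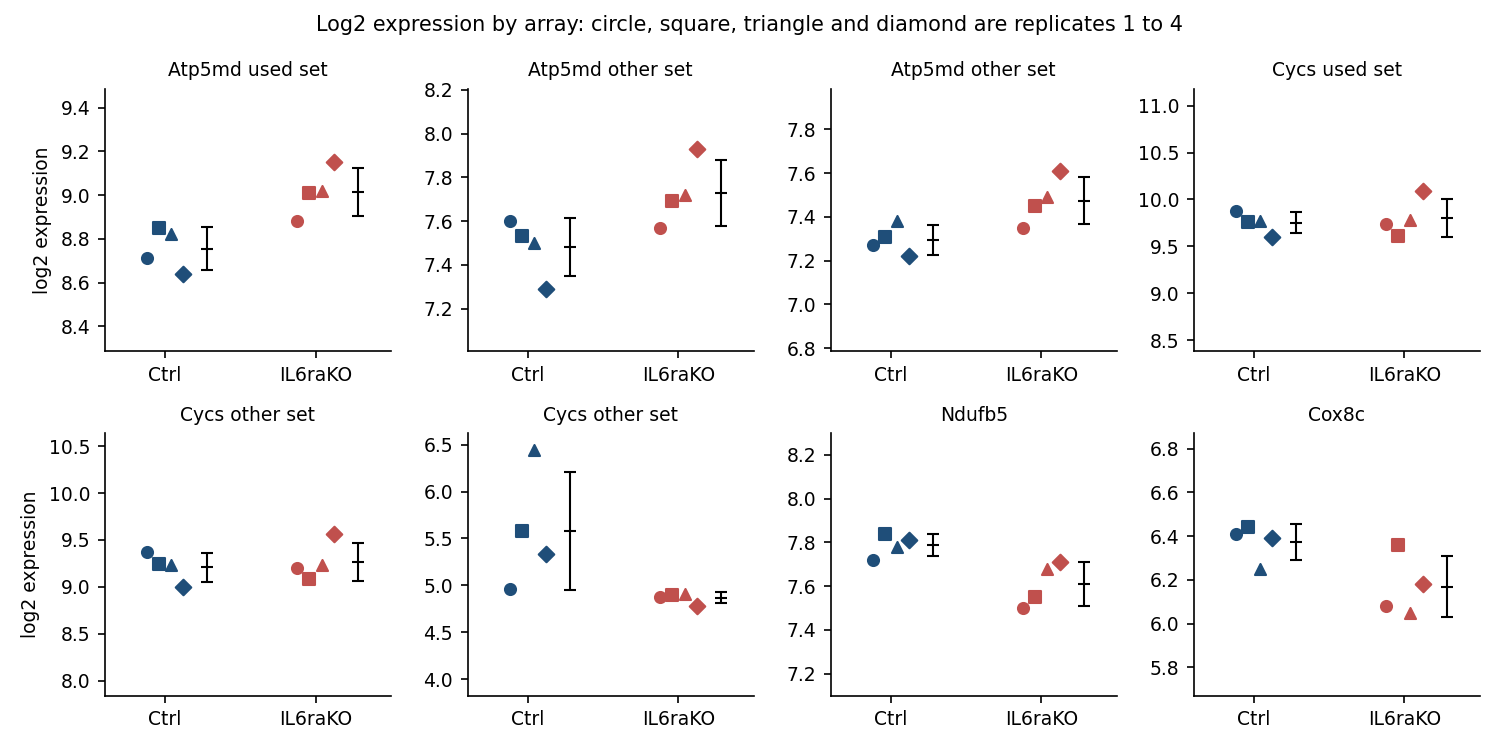
Log2 expression (vertical axis) in the 4 Ctrl (blue) and 4 IL6raKO (red) arrays for the 3 probe sets each of Atp5md and Cycs and for Ndufb5 and Cox8c, with the group mean and SD in black. The used Atp5md set and Ndufb5 show no overlap between groups, and the last Cycs set runs from 4.96 to 6.44 in Ctrl and from 4.78 to 4.91 in IL6raKO. The vertical axes span different ranges and do not start at zero.

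The other ATP synthase genes differed by -0.14 to 0.06. All 5 subunits of the F1 head had a lower mean in IL6raKO, from -0.02 for Atp5c1 to -0.10 for Atp5d, none with an unadjusted p under 0.182. Atp5b, the catalytic beta subunit, stood at 11.40, 11.44, 11.49 and 11.46 in Ctrl and at 11.37, 11.36, 11.44 and 11.45 in IL6raKO. Its difference was -0.04 (95% confidence interval -0.17 to 0.08). Of the 4 stalk subunits, Atp5o differed by -0.11, Atp5j by -0.05, Atp5pb by -0.02 and Atp5h by 0.055. Atp5mpl, another small membrane subunit, differed by -0.12 (adjusted p = 0.768 in limma), or -0.053 without Ctrl replicate 4. Without Ctrl replicate 4, 12 of the 17 subunits of complex V had a lower mean and the median was -0.016.

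Atp5g1, Atp5g2 and Atp5g3 are separate genes that encode the same mature c subunit behind different import sequences. Atp5g1 differed by -0.07 (95% confidence interval -0.21 to 0.07) and Atp5g3 by -0.01 (95% confidence interval -0.17 to 0.16). Atp5g2 stood at 8.76, 9.08, 8.80 and 9.12 in Ctrl and at 8.81, 8.77, 8.80 and 8.82 in IL6raKO. Its difference was -0.14 (95% confidence interval -0.33 to 0.05). Its Ctrl arrays formed a higher and a lower pair, and the IL6raKO arrays lay with the lower pair. The difference was -0.078 without Ctrl replicate 4 and -0.20 without Ctrl replicate 1 (unadjusted p = 0.039 and adjusted p = 0.535 in limma). The 3 Atp5g2 probe sets gave -0.138, -0.124 and -0.14.

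Cytochrome c, the mobile carrier between complexes III and IV and a trigger of apoptosis when released, gave different results by probe set. The used set of Cycs stood at 9.88, 9.76, 9.77 and 9.60 in Ctrl and at 9.74, 9.61, 9.78 and 10.09 in IL6raKO. Its difference was 0.05 (95% confidence interval -0.16 to 0.27). A second set differed by 0.059. The remaining set, a dim one, stood at 4.96, 5.58, 6.44 and 5.33 in Ctrl and at 4.88, 4.90, 4.91 and 4.78 in IL6raKO. On that set the groups did not overlap, the Ctrl SD was 0.63 and the IL6raKO SD 0.06, and the difference was -0.711 (SE 0.268, unadjusted p = 0.0276 and adjusted p = 0.822 in limma over all probe sets). Cycs has many processed pseudogenes, and which transcripts each set reads was not analysed here.

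Beside Cycs, probe sets of the same gene mostly gave differences of the same sign. Of the 18 members with several probe sets, 14 had the same sign on every set. The spread between a gene's sets was at most 0.1 for 15 of the 18, and the widest beside Cycs was 0.139, for Ndufa11 (0.005 and -0.134). The median spread over the 18 was 0.06, no smaller than the median absolute difference between the groups over the 91 members, 0.054. The 6 sets of Atp5l lay between 0.019 and 0.052. Sets of 1 gene can share probe sequences and pseudogene copies, so they are not independent measurements.

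Complex I assembly factors, which build the complex and are absent from the finished enzyme, had higher means in IL6raKO for 6 of 7, with a median of 0.076 and 0 at an unadjusted p under 0.05. Ndufaf7 differed by 0.13, Ndufaf2 by 0.08 and Ndufaf1 by 0.08, with adjusted p-values of 0.751, 0.816 and 0.821 in limma. Of 7 further assembly factors of complex I, 0 passed at an unadjusted p under 0.05 (median 0.035). The 4 factors of complex II had a median of 0.022 with 1 lower at that threshold, Sdhaf3 at -0.20. The 6 of complex III had a median of -0.021 with 0 passing, Lyrm7 and Uqcc2 having the lowest p (-0.15 and -0.12), and the 4 of complex V had a median of 0.004 with 0 passing. Among 14 factors of complex IV, 2 passed at an unadjusted p under 0.05, in opposite directions. Coa6, a copper chaperone, differed by 0.32 (SE 0.08, adjusted p = 0.552 in limma) and Sco1, which acts in the same copper delivery to complex IV, by -0.28 (SE 0.09, adjusted p = 0.605 in limma).

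Genes that regulate, feed or bypass the chain were read from further lists. Of 16 regulators of mitochondrial biogenesis 0 were called (median 0.038). Ppargc1a, the coactivator PGC-1alpha, differed by 0.19 at a dim level of 4.65 in Ctrl (unadjusted p = 0.0491 and adjusted p = 0.681 in limma), Nrf1 by 0.07 and Tfam, which packages and transcribes mitochondrial DNA, by -0.16 (95% confidence interval -0.47 to 0.14). Of 17 tricarboxylic acid cycle genes 1 passed at an unadjusted p under 0.05 (median 0.017): Idh2 at -0.17 (adjusted p = 0.669 in limma). Of 17 genes of other quinone-linked enzymes and ubiquinone synthesis 1 passed (median 0.013), Pdss2 at -0.18. Of 12 glycolysis genes 1 passed (median -0.035): Ldha, lactate dehydrogenase A, at -0.20 (adjusted p = 0.669 in limma). In each of these lists 0 genes were called over all genes.

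Within Ctrl, the arrays differed in their mean level of the members, with replicates 1 and 4 at the ends. Ctrl replicate 4 was the highest of the 8 arrays for 37 of the 91 members (40.7%), against 23.6% of all genes, and Ctrl replicate 1 the lowest for 19 (20.9%), against 13.2%. The mean deviation of all members was -0.051, -0.02, 0.036 and 0.064 in Ctrl and -0.014, -0.016, 0.01 and -0.009 in IL6raKO. Ctrl replicate 4 was highest for all 4 subunits of complex II, 5 of 9 of complex III, 10 of 17 of complex V, 4 of 10 of complex IV and 10 of 34 of complex I. Its largest excess over the mean of the other 7 arrays was 0.448 for Uqcr11, then 0.404 for Ndufv3 and 0.355 for Atp5o. The SD within Ctrl exceeded that within IL6raKO for 63.7% of members and 58.9% of all genes, and without Ctrl replicate 4 for 52.7% and 50.3%.

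Other members were at their lowest in the same array. Ctrl replicate 4 was the lowest of the 8 for 11 members (12.1%, against 15.1% of all genes), and its difference from the mean of the other 7 was -0.452 for Ndufv2, -0.328 for Ndufaf6, -0.277 for Atp5md, -0.232 for Atp5h and -0.206 for Cycs. Its value of 8.64 thus enters the Ctrl mean of Atp5md, and without it the difference of Atp5md was 0.219. Uqcr11 differed by -0.113 without Ctrl replicate 4, Sdhb by 0.114, Cox6b1 by 0.079 and Atp5g3 by 0.061. Of the mitochondrially encoded chain, COX2 of complex IV and ND3 of complex I have probe sets of their own, 2 each. The brighter COX2 set stood at 12.96, 12.73, 12.57 and 12.21 in Ctrl and at 12.73, 12.74, 12.60 and 12.82 in IL6raKO. The brighter ND3 set stood at 11.82, 11.64, 11.54 and 11.14 in Ctrl and at 11.64, 11.53, 11.53 and 11.69 in IL6raKO. On all 4 sets Ctrl replicate 1 was the highest array and Ctrl replicate 4 the lowest, the reverse of the mean over the nuclear-encoded members.

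**Figure D4:**
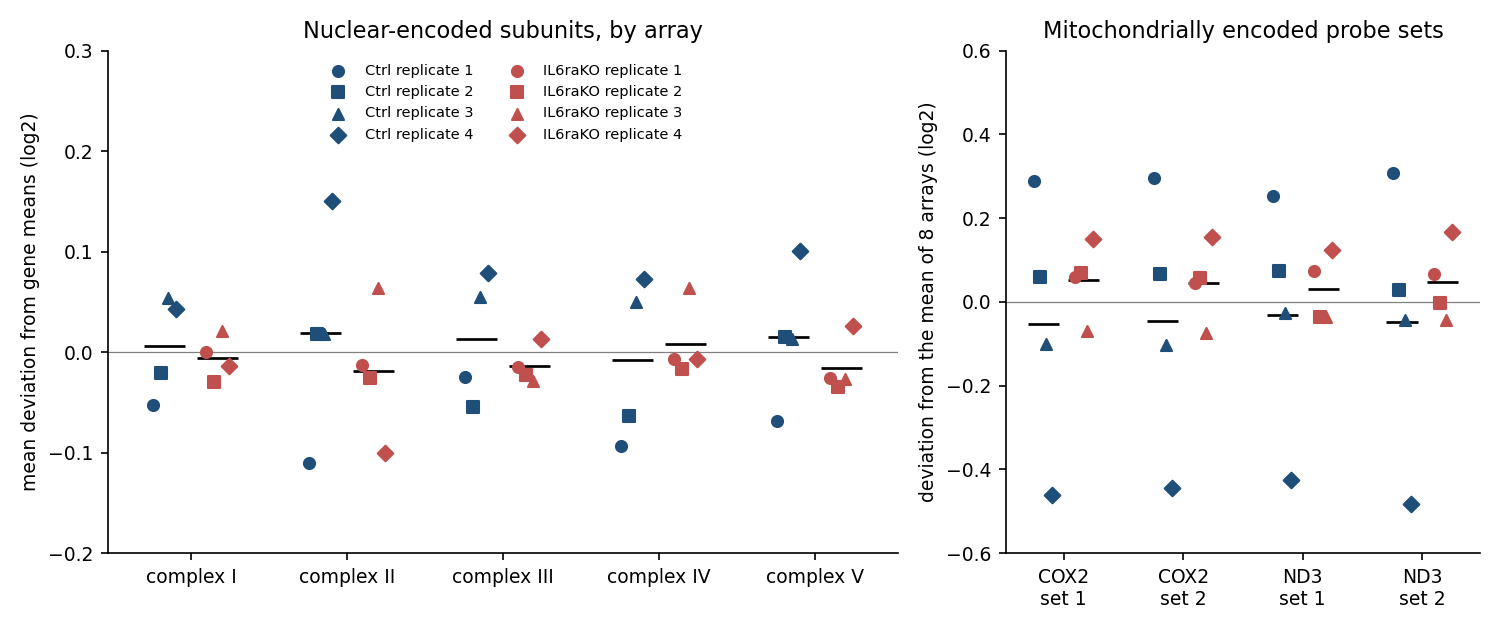
Left, mean deviation of the subunits of complexes I to V from each gene's mean over the 8 arrays (log2, vertical axis), 1 point per array, Ctrl in blue and IL6raKO in red, with group means as black bars. Right, deviation of the 2 COX2 and 2 ND3 probe sets from their means over the 8 arrays (log2, a wider axis). Ctrl replicate 4 (blue diamonds) is the highest array in complexes II to V and the lowest on all 4 mitochondrially encoded sets.

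Between genotypes the mitochondrially encoded sets did not differ beyond this spread. COX2 differed by 0.107 and 0.094 on its 2 sets and ND3 by 0.063 and 0.092, with unadjusted p-values between 0.479 and 0.652 in limma over all probe sets. These differences include the low Ctrl replicate 4. On the brighter COX2 set the other Ctrl arrays stood at 12.57 to 12.96, against 12.60 to 12.82 in IL6raKO. On the brighter ND3 set they stood at 11.54 to 11.82, against 11.53 to 11.69. The SD was 0.289 to 0.326 within Ctrl and 0.079 to 0.095 within IL6raKO. Markers of other cells varied between arrays. The mean log2 level of 10 mast cell and basophil markers was 6.03, 6.23, 6.23 and 6.55 in Ctrl and 5.82, 6.15, 6.11 and 6.33 in IL6raKO. In both groups it was lowest in replicate 1 and highest in replicate 4. The mean of 10 neutrophil markers was 6.13 in Ctrl replicate 4 and 5.72 to 6.05 in the other 7 arrays. Of the single markers, 7 of 10 for mast cells and basophils and 4 of 10 for neutrophils were highest in Ctrl replicate 4. A further 4 neutrophil markers were highest in IL6raKO replicate 4. Mcpt8 stood at 6.87, 7.37, 7.81 and 8.33 in Ctrl and at 6.19, 7.20, 7.52 and 7.67 in IL6raKO, rising with replicate number in both. Cma1 was at its lowest in Ctrl replicate 4, at 5.11 against 5.13 to 5.53. The mean of 9 macrophage markers was 11.59 in it, the lowest of the 8, against 11.63 to 11.73. The part of these cells in the pattern of the members was not tested. Marker lists differed between the genotypes by medians of -0.13 (mast cell and basophil, 9 of 10 lower), -0.02 (neutrophil, 6 of 10) and -0.14 (B cell, 6 of 6). Medians of the other lists were -0.07 (T and NK cell, 5 of 7 lower), -0.07 (stromal, 6 of 7), -0.13 (erythroid and megakaryocyte, 2 of 3 measured out of 8 listed) and -0.01 (macrophage, 5 of 9). The mean of the B cell markers did not overlap between groups, at 5.40 to 5.53 in Ctrl and 5.28 to 5.37 in IL6raKO. All 6 B cell markers had a mean below the median over all genes. In these lists 0 markers were called over all genes.

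Promoter letters were not used in choosing the members, and their counts are given with no test. RefSeq promoters (GRCm38.p6, 250 bases before to 50 after a start) were found for 74 of the 91 genes. The NRF1 motif, read as GCGC, any base and then TGCGC, belongs to a factor named for its action on respiratory genes. It was present on either strand in 18 of the 74 (24.3%), against 7.2% of 17491 protein-coding genes and 4.6% of all 32851 promoters. The GABPA motif CCGGAAG was present in 24.3% of the members and 12.9% of coding genes (8.9% of all promoters), the YY1 motif AAGATGGC in 13.5% and 3.6% (2.7%), and the ESRRA motif CAAGGTCA in 5.4% and 1.6% (1.6%). The STAT motif TTCNNNGAA was present in 6.8% of members and 8.9% of coding genes (8.3%), the SP1 motif GGGCGGG in 35.1% and 36.9% (25.6%) and the cyclic AMP motif TGACGTCA in 6.8% and 2.5% (1.8%). The searches were of letters only and motifs may overlap. By complex, NRF1 letters were in a promoter of 6 of 31 genes of complex I, 2 of 3 of complex II, 1 of 5 of complex III, 1 of 8 of complex IV and 6 of 15 of complex V.

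The windows printed here show these letters in members described above, each written 5′ to 3′ on the gene's strand, ending before the start, with the motif in capitals. In Sdha the motif lies on the opposite strand, so its capitals read as the reverse complement. They are a subunit each of complexes II, IV and V with NRF1 letters, at chr13:74350304-74350363, chr5:115349086-115349145 and chr15:102671055-102671114, and cytochrome c with the cyclic AMP motif, at chr6:50566706-50566763, all on the minus strand. The first capital lies 98, 162, 42 and 169 bases before the start, in that order.
Sdha: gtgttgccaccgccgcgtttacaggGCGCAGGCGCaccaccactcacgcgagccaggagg
Cox6a1: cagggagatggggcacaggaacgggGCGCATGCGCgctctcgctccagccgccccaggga
Atp5g2: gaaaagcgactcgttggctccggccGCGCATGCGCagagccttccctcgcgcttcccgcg
Cycs: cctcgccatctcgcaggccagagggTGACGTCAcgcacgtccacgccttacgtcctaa
A match describes the letters of a promoter and not binding of the factor. The used probe sets of these 4 genes differed between the genotypes by -0.08, 0.01, -0.14 and 0.05, and 0 of them passed at an unadjusted p under 0.05.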

How the data were processed

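The authors deposited log2 expression values of 35556 probe sets from 8 Affymetrix whole-transcript arrays. RMA, which corrects background, makes arrays alike by quantiles and sums probes, and R 2.13.1 are named per the submitters' processing notes. No genome build or filter is stated in the labels. RMA narrows differences of dim probe sets. GEO's platform annotation gave 1 symbol to 21789 probe sets (61.3%), several to 1621 and none to 12146. The probe set of highest mean represents each of 19938 genes. All 91 members matched a RefSeq identifier (GRCm38.p6, used for names and promoters).

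IL6raKO was compared with Ctrl in limma 3.58.1 (R 4.3.3; lmFit and eBayes, no covariate, no filter, two-sided), with Benjamini-Hochberg adjustment over all genes and calls at an adjusted p under 0.05. The procedure was tested on simulated data with added changes larger than the difference of any member. That test does not show how well changes of the members' size would be found. Members and lists were chosen with earlier results of these data known, so lists are described by counts and medians, with no list test. Genes described with values are listed isoforms and catalytic subunits, the 3 of lowest p per class, and those without overlap between groups. Further members at the extremes of Ctrl replicate 4, and the remaining subunits given by a difference alone, were chosen after their values were seen. Alternatives were other variance models, the replicate block, array weights, 2 normalizations, 2 filters, probe set means, all probe sets, thresholds, and each array left out. Precision is limited by the number of arrays.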

Additional observations from a re-analysis of the deposited data

Results flagged for a closer look

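Among 88 groups of 4 arrays, 5 had a single array well outside the remaining ones. Chance flags about 1 in 20 groups, or 4.4 here. Cox7a2 was at 8.56 in IL6raKO replicate 3 and between 8.35 and 8.38 in the other IL6raKO arrays. Uqcr11 was at 7.20 in the same array and between 7.62 and 7.70 in the others. The level of complex IV was also high there, at 0.064 against -0.017 to -0.007. Ndufa1 was at 6.78 in IL6raKO replicate 1 and between 7.08 and 7.11 in the other IL6raKO arrays. The level of complex V was 0.026 in IL6raKO replicate 4 and between -0.035 and -0.026 in the others.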

How the results depend on the processing

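In limma, 0 members were called in each of the 18 alternative settings. Of the 91, 82 were tested among genes above the median level and 89 among those above the 25th percentile. The fit of all probe sets tested 118 sets of the members. In the main fit with all arrays, 3 members had an unadjusted p under 0.05. That count was 1 at an unadjusted p under 0.01 (1.63% of all genes) and 2 to 5 with 1 array left out, the 5 being without Ctrl replicate 3. Over all genes 0 were called with the replicate block and with all probe sets. The same held without any 1 Ctrl array and without IL6raKO replicate 3 or 4. In those settings 0 calls among the members says little. It also says little in the main fit, where 0.0301% of all genes were called. The median over the members lay between -0.043 and -0.001, and those of complexes I to V moved by less than the spread between arrays. Il6ra, not called with all arrays (adjusted p = 0.0607 in limma), passed with a trended and robust variance (-0.501, adjusted p = 0.00762), among genes above the median level (-0.501, 0.0142) or the 25th percentile (-0.501, 0.0328), centred on the 75th percentile (-0.53, 0.0438) and with quantile normalization again (-0.525, 0.0476), and did not pass with array weights (adjusted p = 0.0789), with probe set means (0.059), with the replicate block (0.27) or without any 1 array (0.0528 to 0.222, differences of -0.561 to -0.446). Same-numbered arrays did not deviate together over all genes (correlations of -0.01 to 0.04, and 2 of 8 arrays matched their own number best). Yet the mean of the mast cell and basophil markers was lowest in replicate 1 and highest in replicate 4 of both groups. Whether same-numbered arrays shared a preparation is not stated in the labels and cannot be told from these correlations. With the replicate block the median was -0.015, 4 members had an unadjusted p under 0.05 and 0 were called. The mean of the Cycs probe sets differed by -0.199. Even before adjustment over all genes, arrays of 4 a group could not tell from zero a difference under each member's half-width, 0.12 to 0.30 (log2).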
